A study of Mus musculus with 12 samples.

Results

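The genes described here encode cytochromes P450 of the Cyp2d subfamily together with Cyp2e1 and Cyp2f2, as their RNA was measured in mouse liver. The members were chosen by name, with earlier results of these data known. Of the 10 names, 9 (Cyp2d9, Cyp2d10, Cyp2d11, Cyp2d12, Cyp2d22, Cyp2d26, Cyp2d40, Cyp2e1 and Cyp2f2) had a row among the 41325 genes listed. Cyp2d13 has no row under that name and was not analysed here. RNA-seq was made from the livers of 12 mice of strain C57BL/6J and WT genotype, 4 in each of 3 groups. CDDO-Me mice had nonalcoholic steatohepatitis (NASH), an inflamed and scarred fatty liver, set up with CDAHFD, and were given oral CDDO-Me (bardoxolone methyl, 10 mg/kg) over 8 weeks. NASH vehicle mice had the same CDAHFD treatment and received vehicle, and control mice had no NASH and received vehicle. CDDO-Me is a triterpenoid drug that raises the activity of NRF2, whose gene is Nfe2l2. The labels state neither the age and sex of the mice nor the diet of the control mice, and nothing says whether mice shared a cage or litter. The p-values therefore measure the spread between these libraries.

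Cytochromes P450 are heme enzymes of the endoplasmic reticulum that oxidize drugs, steroids and fatty acids, with electrons passed to them by NADPH-cytochrome P450 reductase (Por) and cytochrome b5. CYP2E1 oxidizes ethanol and acetaminophen and is a textbook enzyme of pericentral hepatocytes, those around the central vein, whereas mouse CYP2F2, which activates naphthalene, lies in periportal hepatocytes and in the club cells of the lung. Mouse Cyp2d genes form a cluster related to human CYP2D6, a main drug-metabolizing enzyme, and Cyp2d9 encodes a testosterone 16-alpha-hydroxylase that growth hormone keeps high in male liver.

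In GRCm38 coordinates of the deposited tables, the 7 Cyp2d members lie on chromosome 15, from Cyp2d22 (82370527 to 82380260, minus strand) to Cyp2d26 (82790101 to 82794294, minus strand). Cyp2e1 lies at chromosome 7, 140763739 to 140774987, and Cyp2f2 at chromosome 7, 27119909 to 27133660, both on the plus strand. All 9 are annotated as protein-coding. The Cyp2d genes are close copies of each other. In GENCODE M21, the coding sequences of Cyp2d10 and Cyp2d11 were 94.7% identical over 1515 aligned bases, and those of Cyp2d9 and Cyp2d10 were 92.5% identical. Of all windows of 75 bases, the length of a read, 29.1% in the coding sequence of Cyp2d10, 22.6% in that of Cyp2d11 and 18.1% in that of Cyp2d9 also occurred in another Cyp2 transcript or that of a neighbouring gene. For Cyp2e1 and Cyp2f2 the share was 0%, but Gm15883, a gene that overlaps Cyp2f2, was not among the genes compared. In the deposited tables, 97.6% of the reads of Cyp2d9, 94.2% of those of Cyp2d10 and 92.3% of those of Cyp2d11 were counted as unique, against 99.8% for Cyp2e1. For Cyp2f2, which overlaps the antisense gene Gm15883, 95.4% were unique. The share of such windows was lower for Cyp2d40 (8.8%) and Cyp2d12 (5.83%), of whose reads 98.4% and 98.5% were unique. Counts of the Cyp2d genes are thus uncertain to the extent that reads can move between copies. Those of Cyp2f2 are uncertain to the extent that reads of Gm15883 are among them. Gm15883 was itself counted at 22 to 217 reads per library, and Cyp2f2 at 4761 to 47198.

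The 120 bases before the RefSeq start of 6 members are shown because Cyp2d9, Cyp2d10 and Cyp2d11 resemble each other upstream, while Cyp2d11 was far lower in level. They come from RefSeq (GRCm38.p6), which had promoters for 7 of the 9 members (not Cyp2d12 or Cyp2d22). Capitals mark the letters TATAAA on either strand, so that TTTATA is a match on the opposite strand. TATAAA is a form of the TATA box, which positions the start of transcription. Whether any marked stretch acts as a TATA box was not tested.
Cyp2d9, chr15:82452257-82452376, + strand: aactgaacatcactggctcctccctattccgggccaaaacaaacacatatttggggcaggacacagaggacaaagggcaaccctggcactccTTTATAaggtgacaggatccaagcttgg
Cyp2d10, chr15:82407195-82407314, - strand: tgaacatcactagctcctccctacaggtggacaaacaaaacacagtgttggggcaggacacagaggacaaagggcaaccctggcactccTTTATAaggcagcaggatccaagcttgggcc
Cyp2d11, chr15:82394023-82394142, - strand: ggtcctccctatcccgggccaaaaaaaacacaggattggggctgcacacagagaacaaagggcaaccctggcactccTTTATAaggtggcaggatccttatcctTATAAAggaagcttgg
Cyp2d26, chr15:82794246-82794365, - strand: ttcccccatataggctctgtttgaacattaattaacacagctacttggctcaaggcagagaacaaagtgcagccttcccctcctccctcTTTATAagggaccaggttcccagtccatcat
Cyp2e1, chr7:140763699-140763818, + strand: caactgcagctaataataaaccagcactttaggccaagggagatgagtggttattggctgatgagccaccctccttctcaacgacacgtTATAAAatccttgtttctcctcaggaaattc
Cyp2f2, chr7:27119835-27119954, + strand: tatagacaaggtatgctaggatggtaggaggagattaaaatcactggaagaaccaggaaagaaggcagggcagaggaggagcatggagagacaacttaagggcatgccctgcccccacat
Over the 250 bases upstream, Cyp2d9 and Cyp2d11 were 93.6% identical and Cyp2d9 and Cyp2d10 were 85.0% identical. Cyp2d26 was 64.4% identical to Cyp2d9, 66.8% to Cyp2d10 and 65.3% to Cyp2d11. These values were no higher than the 67.5% for Cyp2d9 and Cyp2e1, from outside the subfamily, while Cyp2e1 and Cyp2f2 were 61.5% identical. TATAAA matched 6 of the 7 promoters, Cyp2f2 being the one without, and 12.4% of the 32851 promoters in the table. Within the same windows none of the 7 held, on either strand, the C/EBP motif TTGCNNAA (9.56% of all promoters), the STAT motif TTCNNNGAA (7.02%), the antioxidant response element TGACNNNGC (10.2%) or the HNF4 motifs CAAAGGTCA (0.426%) and CAAAGTCCA (0.384%). These matches describe letters in a short window and nothing about binding.

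The members spanned more than 3 powers of 10 in level. Levels are given in TPM (read counts scaled to transcript length and library size). The order of genes by TPM thus depends on the annotated exon length. That length was 2658 bases for Cyp2d9, 1648 for Cyp2d10, 1792 for Cyp2d26 and 2025 for Cyp2f2. Cyp2e1 was the highest in all groups, with 7908, 6748, 6792 and 7511 TPM in CDDO-Me libraries, 5153, 5507, 4751 and 4261 TPM in NASH vehicle libraries and 3463, 4643, 3956 and 4519 TPM in control libraries. By mean TPM it ranked 21 among all genes in CDDO-Me livers, 25 in NASH vehicle livers and 36 in control livers. Cyp2d9, Cyp2d10, Cyp2d26 and Cyp2f2 formed a second tier. In control livers Cyp2f2 (1319.6 ± 220 TPM, mean ± SD, n = 4), Cyp2d9 (1181 ± 148 TPM), Cyp2d10 (1158 ± 181 TPM) and Cyp2d26 (945.6 ± 157 TPM) followed each other with overlapping ranges. In NASH vehicle livers their order was Cyp2d26 (845.9 ± 39.2 TPM), Cyp2d10 (711.4 ± 75.9 TPM), Cyp2f2 (312.0 ± 166 TPM) and Cyp2d9 (240.8 ± 89.7 TPM), and here the ranges overlapped between Cyp2f2 and Cyp2d9 but not between Cyp2d10 and Cyp2f2. CDDO-Me livers had the same order, with Cyp2d26 at 1210.3 ± 108 TPM and Cyp2d9 at 446.6 ± 94.1 TPM, and the range of Cyp2f2 overlapped with those of Cyp2d10 and Cyp2d9.

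Cyp2d22, a member that is also known from brain, and Cyp2d40 stood lower. Cyp2d22 had 124.4 ± 13.5 TPM in CDDO-Me livers, 90.2 ± 10.1 TPM in NASH vehicle livers and 127.5 ± 14.5 TPM in control livers. Cyp2d40 had 67.8 ± 14.8 TPM in CDDO-Me livers, 41.1 ± 6.98 TPM in NASH vehicle livers and 92.8 ± 13.97 TPM in control livers. Cyp2d11 and Cyp2d12 were at trace level, with group means of 0.31 to 1.39 TPM. Cyp2d11 had 4, 9, 17 and 21 reads in the CDDO-Me libraries, 15, 16, 8 and 6 in the NASH vehicle libraries and 34, 28, 47 and 16 in the control libraries. Cyp2d9 and Cyp2d11, printed above with similar upstream sequence, thus lay far apart in level.

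**Figure D1:**
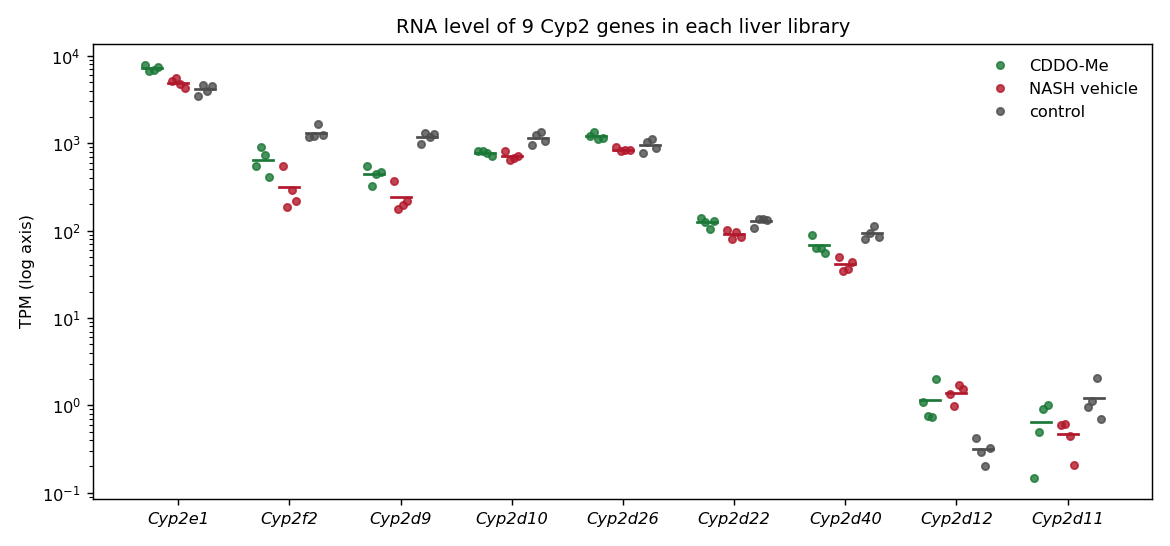
TPM on a log axis for each of the 9 genes, with 1 point per library (4 CDDO-Me, 4 NASH vehicle and 4 control livers) and a bar at each group mean. Cyp2e1 lies at the top in every group. Cyp2f2 and all Cyp2d genes other than Cyp2d12 have their lowest group mean in NASH vehicle livers. Cyp2d11 and Cyp2d12 lie near 1 TPM.

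The libraries held 28161057 to 33852338 reads on genes. Fold changes are on the scale of CPM (reads of a gene scaled by those of its library) after scaling by the trimmed mean of M values (TMM), and 16456 genes, all 9 members among them, had enough reads to be tested with edgeR's quasi-likelihood test and Benjamini-Hochberg adjustment at 0.05. The scaling matters here. For NASH vehicle against control, TMM placed the median of all genes at -0.01 on the log2 scale, and library totals alone placed it at 0.62 and log2(TPM + 1) at 0.51. In that comparison 49.6% of the called genes were higher with TMM, against 88.2% with library totals alone and 92.6% on log2(TPM + 1). For CDDO-Me against NASH vehicle the share was 56.5% with TMM, 36.8% with library totals and 23.01% on log2(TPM + 1), and for CDDO-Me against control it was 52.7% with TMM, 88.5% with library totals and 91.6% on log2(TPM + 1). Each direction below is therefore relative to the bulk of the genes. These are also bulk livers, in which fewer hepatocytes and less RNA per hepatocyte cannot be told apart.

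NASH vehicle livers set against control livers ask what the disease model changed. Here 8 of the 9 members fell and 1, Cyp2d12, rose, with a median log2 fold change of -1.51, while 30.0% of all tested genes were called lower and 29.6% higher. Cyp2d9 changed most. It had 351.0, 159.0, 148.7 and 188.6 CPM in the NASH vehicle libraries, against 1575, 2097, 1626 and 1945 CPM in the control libraries. Its ranges lay far apart, and the log2 fold change was -3.10 ± 0.26 (SE, n = 4 each, edgeR adjusted p = 6.7e-07).

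Cyp2f2 fell by nearly as much. It had 401.1, 130.8, 170.2 and 143.5 CPM in the NASH vehicle libraries and 1468, 1508, 1746 and 1443 CPM in the control libraries. NASH vehicle 1 stood above the other 3 libraries of its group but well below every control, and the log2 fold change was -2.87 ± 0.40. Cyp2e1, the other member outside the Cyp2d cluster, moved much less. It had 3950, 4048, 2917 and 2948 CPM in the NASH vehicle libraries and 4570, 6078, 4447 and 5596 CPM in the control libraries, with no overlap and a log2 fold change of -0.58 ± 0.17 (edgeR adjusted p = 0.0090). Its sign depended on the scaling. The log2 fold change of Cyp2e1 was 0.05 with library totals alone (edgeR adjusted p = 0.73) and 0.25 on log2(TPM + 1) (limma adjusted p = 0.064). Both values lay below the median of all genes under the same scaling (0.62 and 0.51), and the TPM ranges of the groups overlapped.

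Within the Cyp2d cluster the falls differed in size. Cyp2d40 fell by 1.98 ± 0.18 on the log2 scale, Cyp2d10 by 1.51 ± 0.16, Cyp2d22 by 1.26 ± 0.12 and Cyp2d26 by 0.97 ± 0.15, each with no overlap in CPM. Cyp2d26 had 590.1, 506.6, 427.8 and 481.6 CPM in NASH vehicle libraries, against 838.6, 1123, 1061 and 910.3 CPM in control libraries. On log2(TPM + 1) its value was -0.15, which did not pass (limma adjusted p = 0.26). Cyp2d11 also fell (log2 fold change -2.02 ± 0.53), from the few reads given above. Cyp2d12 had 65, 47, 81 and 71 reads in NASH vehicle libraries and 26, 15, 11 and 16 in control libraries. It rose by a log2 fold change of 1.33 ± 0.35, at a mean level of 1.39 TPM in NASH vehicle livers, and 98.5% of its reads were unique.

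CDDO-Me livers set against NASH vehicle livers ask what the drug changed in the diseased liver. Here 6 of the 9 members rose (Cyp2d9, Cyp2d22, Cyp2d26, Cyp2d40, Cyp2e1 and Cyp2f2), 0 fell and 3 did not pass. The median log2 fold change of the 9 was 0.74. Of all tested genes, 9.39% were called higher and 7.24% lower. The count of 0 fallen members was the same in all 24 alternative settings, DESeq2 and limma among them, and it was 0 at an unadjusted p under 0.05.

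Cyp2e1 had 5951, 5985, 6433 and 5296 CPM in the CDDO-Me libraries, against the 2917 to 4048 CPM of the NASH vehicle libraries. The groups were well separated, and the log2 fold change was 0.77 ± 0.17 (edgeR adjusted p = 0.0077), a 1.71-fold rise. Its call held in all 24 alternative settings, with log2 fold changes of 0.56 to 0.85. Cyp2d9 had 514.5, 354.9, 513.4 and 405.3 CPM in CDDO-Me libraries, which lay above the 148.7 to 351.0 CPM of NASH vehicle libraries, though CDDO-Me 2 lay close to NASH vehicle 1. Its log2 fold change was 1.08 ± 0.25 (edgeR adjusted p = 0.010). In TPM the Cyp2d9 ranges of these groups overlapped, with 326.0 in CDDO-Me 2 and 372.5 in NASH vehicle 1.

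Cyp2f2 rose with the widest spread. It had 396.3, 760.4, 646.7 and 272.7 CPM in the CDDO-Me libraries and 130.8 to 401.1 CPM in the NASH vehicle libraries, so that CDDO-Me 1 and 4 lay below NASH vehicle 1. The log2 fold change was 1.30 ± 0.38 (edgeR adjusted p = 0.036). That call ended without NASH vehicle 2, 3 or 4 or without CDDO-Me 2 or 3, with log2 fold changes of 1.06 to 1.20 and edgeR adjusted p of 0.095 to 0.11. It also ended in a fit of the 8 libraries of these groups alone (edgeR adjusted p = 0.055) and with no filter on low counts (edgeR adjusted p = 0.093). Without NASH vehicle 1 the log2 fold change was 1.81 (edgeR adjusted p = 0.0015). That library also stood apart in the summed CPM of 7 hepatocyte markers, with 71899 CPM where the other 3 NASH vehicle libraries had 46823 to 54408 CPM. In CDDO-Me libraries 1 to 4 the hepatocyte markers summed to 50073, 67453, 59808 and 45462 CPM, which is the same order as for Cyp2f2. The orders differed in the other groups. Control 3 had the lowest marker sum of its group (97851 CPM) and the highest Cyp2f2 (1746 CPM). NASH vehicle 3 had the lowest sum of its group (46823 CPM) but more Cyp2f2 (170.2 CPM) than NASH vehicle 2 and 4. The part of hepatocyte content in the Cyp2f2 values was not tested.

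Among the Cyp2d genes, Cyp2d40 rose by a log2 fold change of 0.93 ± 0.18, Cyp2d26 by 0.74 ± 0.15 and Cyp2d22 by 0.65 ± 0.12, each with no overlap in CPM. Cyp2d26 had 775.6, 1009, 881.1 and 677.6 CPM in CDDO-Me libraries, against 427.8 to 590.1 CPM in NASH vehicle libraries. Cyp2d10, whose coding sequence is close to that of Cyp2d9, had 472.9, 552.2, 562.7 and 397.7 CPM in CDDO-Me libraries and 484.2, 365.3, 319.9 and 374.4 CPM in NASH vehicle libraries. These ranges overlapped, and its log2 fold change of 0.36 ± 0.16 did not pass (edgeR adjusted p = 0.13). Without NASH vehicle 1 it passed (log2 fold change 0.49, edgeR adjusted p = 0.036). Cyp2d11 (0.40 ± 0.54) and Cyp2d12 (-0.13 ± 0.33) did not pass, with edgeR adjusted p of 0.67 and 0.83. Whether Cyp2d9 and Cyp2d10 differed in their response was not tested.

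**Figure D2:**
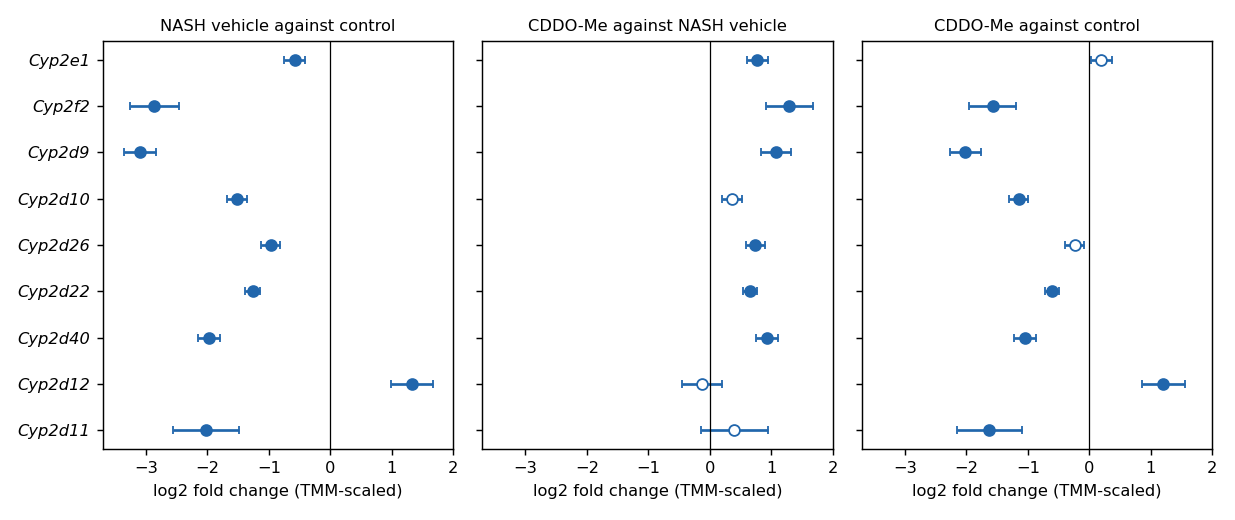
TMM-scaled log2 fold changes with their SE for the 9 genes in the 3 comparisons, from 4 libraries a group. Filled points passed an edgeR adjusted p of 0.05 and open points did not. Cyp2d12 is the one gene to the right of 0 in NASH vehicle against control, and 8 of the 9 lie to the right of 0 in CDDO-Me against NASH vehicle.

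CDDO-Me livers set against control livers ask how far treated livers stood from livers without disease. The CDDO-Me libraries are the same as in the preceding comparison and the control libraries the same as in the first one, so the 3 comparisons are not independent. Here 6 of the 9 members were lower, 1 (Cyp2d12) was higher and 2 (Cyp2d26 and Cyp2e1) did not pass. Their median log2 fold change was -1.05, while 23.6% of all tested genes were called lower and 26.2% higher. Cyp2d9 at -2.02 ± 0.25 and Cyp2f2 at -1.57 ± 0.38 were the lowest of the abundant members, both with no overlap. Cyp2d10 fell by 1.15 ± 0.16 on the log2 scale, Cyp2d40 by 1.05 ± 0.18 and Cyp2d22 by 0.61 ± 0.12. Cyp2d22 lost its call with library totals alone (-0.14) and on log2(TPM + 1) (-0.03). Cyp2d11 lost its call with library totals alone (edgeR adjusted p = 0.071) and on log2(TPM + 1) (limma adjusted p = 0.083), and Cyp2d12 without control 3 and CDDO-Me 4 (edgeR adjusted p = 0.095).

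Cyp2e1 had 5296 to 6433 CPM in CDDO-Me libraries and 4447 to 6078 CPM in control libraries, and its log2 fold change was 0.19 ± 0.17 (edgeR adjusted p = 0.36). With library totals alone the log2 fold change of Cyp2e1 was 0.66 (edgeR adjusted p = 0.000346), and on log2(TPM + 1) it was 0.81 (limma adjusted p = 6.6e-05), both called higher and both above the medians of all genes (0.51 and 0.37). The TPM of Cyp2e1 were higher in 4 of 4 CDDO-Me libraries than in any control library. Cyp2d26 had a log2 fold change of -0.23 ± 0.15 (edgeR adjusted p = 0.22). Its sign turned to 0.22 with library totals alone and to 0.37 on log2(TPM + 1) (limma adjusted p = 0.014), neither above the medians of all genes (0.51 and 0.37).

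**Figure D3:**
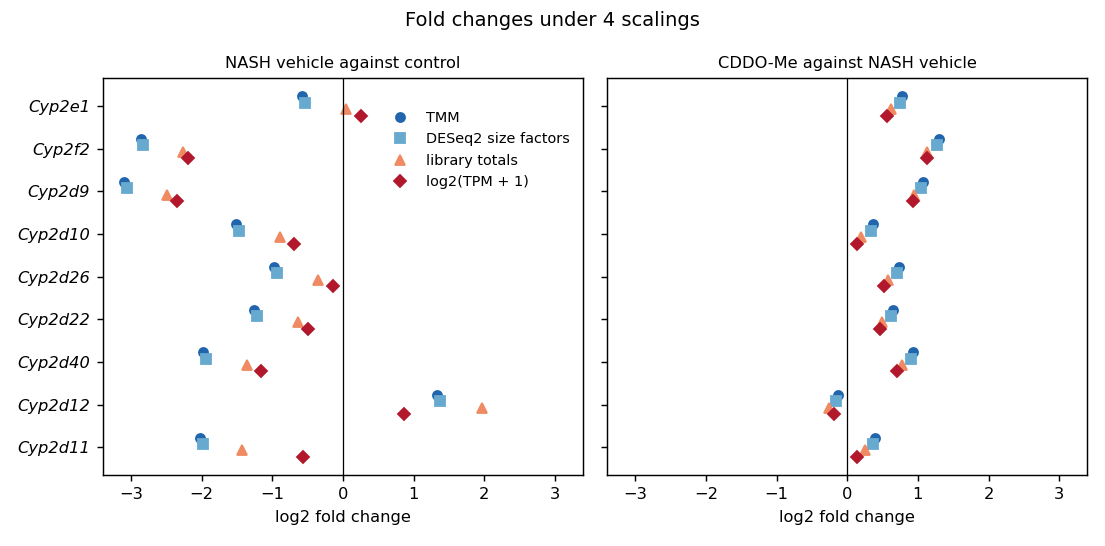
Log2 fold changes of the 9 genes under 4 ways of scaling the libraries (TMM, DESeq2 size factors, library totals, and limma-trend on log2(TPM + 1)), for NASH vehicle against control and CDDO-Me against NASH vehicle. Cyp2e1 in NASH vehicle against control is the gene whose points cross 0, from -0.58 with TMM to 0.25 on log2(TPM + 1).

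The ratio of Cyp2e1 to Cyp2f2 reads within a library does not depend on the scaling of libraries. It was 15.0, 7.87, 9.95 and 19.4 in the CDDO-Me libraries, 9.85, 30.9, 17.1 and 20.5 in the NASH vehicle libraries and 3.11, 4.03, 2.55 and 3.88 in the control libraries. Every library of both NASH groups lay above every control library, and the NASH groups overlapped. On the log2 scale the ratio was higher by 2.44 ± 0.38 (SE) in NASH vehicle than in control livers, a 5.42-fold difference (exact permutation test, two-sided, p = 0.0286, adjusted over 3 comparisons 0.0429, higher in 4 of 4 libraries). In CDDO-Me against control livers it was higher by 1.88 ± 0.33 (exact permutation p = 0.0286, adjusted 0.0429). In CDDO-Me against NASH vehicle livers it differed by -0.56 ± 0.45 (exact permutation p = 0.229). The smallest p this design of 4 against 4 allows is 0.0286. The ratio compares 2 genes of different length, so only its differences between groups are read.

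**Figure D4:**
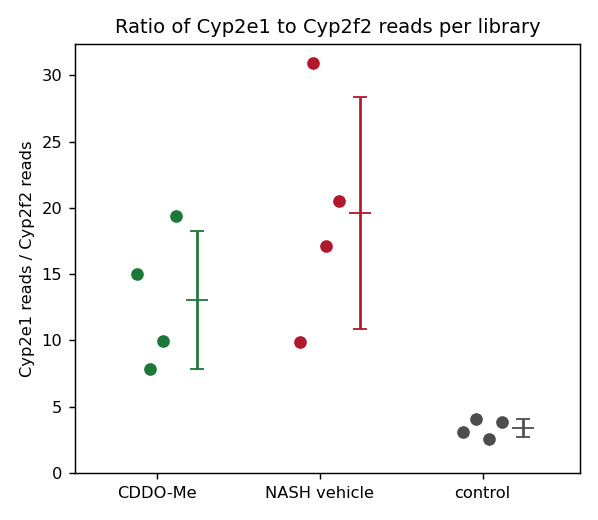
Ratio of Cyp2e1 reads to Cyp2f2 reads, 1 point per library, with mean and SD beside each group of 4. The control libraries lie between 2.55 and 4.03, below the 8 libraries of the NASH groups, which lie between 7.87 and 30.9.

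The makeup of the Cyp2d RNA also differed between groups. The summed TPM of the 7 Cyp2d members was 2629.5 ± 149 in CDDO-Me livers, 1931 ± 218 in NASH vehicle livers and 3506 ± 459 in control livers. Cyp2d9 held 16.98% ± 3.3 of that sum in CDDO-Me livers, 12.2% ± 3.0 in NASH vehicle livers and 33.8% ± 3.0 in control livers. Cyp2d26 held 46.0% ± 3.2 in CDDO-Me livers, 44.0% ± 2.8 in NASH vehicle livers and 26.9% ± 1.4 in control livers. Cyp2d10 held 29.6% ± 1.1 in CDDO-Me livers, 36.9% ± 0.39 in NASH vehicle livers and 33.0% ± 1.6 in control livers. For Cyp2d9 and Cyp2d26 the shares of both NASH groups did not overlap with those of control libraries, and the shares of the NASH groups overlapped with each other. The Cyp2d10 shares of NASH vehicle libraries lay above those of both other groups, and CDDO-Me libraries (28.7% to 30.9%) and control libraries (30.9% to 34.9%) overlapped slightly. No test was run on these shares, which sum to the whole and so are not independent. Their size also depends on annotated exon length, 2658 bases for Cyp2d9 against 1648 for Cyp2d10. In CPM, which leaves length out, Cyp2d9 had 1575 to 2097 in control libraries and Cyp2d10 964.7 to 1255, with no overlap.

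**Figure D5:**
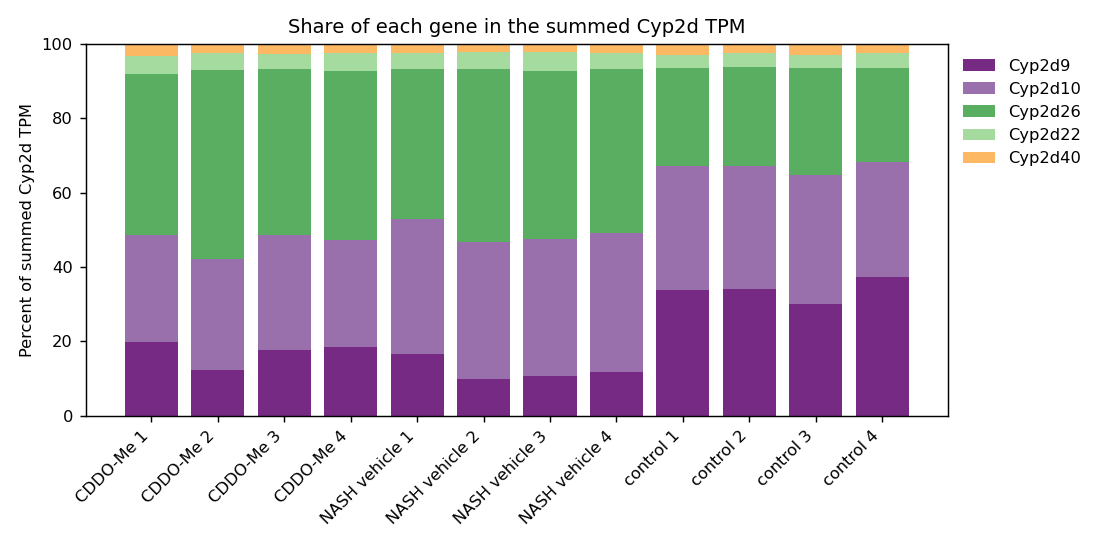
Percent of the summed Cyp2d TPM held by Cyp2d9, Cyp2d10, Cyp2d26, Cyp2d22 and Cyp2d40 in each of the 12 libraries; Cyp2d11 and Cyp2d12 are too low to be seen. The Cyp2d9 share is below 20% in the 8 libraries of NASH livers and 30.0% to 37.2% in control libraries.

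A list of electron donors and other partners of P450 enzymes was counted next. Beside this list and those below stand the shares of all 16456 tested genes. In NASH vehicle against control livers 30.0% were lower and 29.6% higher. In CDDO-Me against NASH vehicle livers 7.24% were lower and 9.39% higher. In NASH vehicle against control livers, 8 of 8 partner genes fell (median log2 fold change -0.94), but 5 did so with library totals alone and 2 on log2(TPM + 1). Of all tested genes, those scalings called 1326 and 873 lower. In CDDO-Me against NASH vehicle livers, 4 of 8 rose and 4 did not pass (median 0.49). Por, the reductase, had a log2 fold change of -0.53 ± 0.15 and then of 0.67 ± 0.15 in these comparisons, the first of which turned to 0.09 with library totals alone and to 0.25 on log2(TPM + 1). Pgrmc1, a heme-binding partner of P450 enzymes, rose by 1.36 ± 0.17 in CDDO-Me against NASH vehicle livers, Cyb5a, the gene of cytochrome b5, by 0.86 ± 0.15, and Cyb5b, the cytochrome b5 of the mitochondrial outer membrane, by 0.63 ± 0.14.

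Other Cyp2 genes numbered 40, of which 30 were tested. In NASH vehicle against control livers, 21 of them fell and 4 rose (median log2 fold change -1.59), and in CDDO-Me against NASH vehicle livers 14 rose and 16 did not pass (median 0.83). Cyp2c29, a mouse epoxygenase of fatty acids, had log2 fold changes of -5.09 ± 0.20 and 1.32 ± 0.18 in these comparisons, and Cyp2c37 of -2.53 ± 0.19 and 1.66 ± 0.18. Cyp2a5, the mouse coumarin hydroxylase, had 0.28 ± 0.24 (edgeR adjusted p = 0.33) and 4.97 ± 0.28, and 91.6% of its reads were unique. Medians of the 9 members were -1.51 and 0.74.

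Since Cyp2e1 and Cyp2f2 are textbook genes of different liver zones, genes of both zones were counted. Of 20 pericentral genes, 6 rose, 6 fell and 8 did not pass in NASH vehicle against control livers (median -0.13), and 11 rose and 5 fell with library totals alone. Of 20 periportal genes, 15 fell and 5 did not pass (median -1.68), and 13 fell and 3 rose with library totals alone. Library totals alone called 9908 of all 16456 tested genes higher and 1326 lower in this comparison. In CDDO-Me against NASH vehicle livers, 9 pericentral genes rose and 1 fell (median 0.33), and 3 periportal genes rose and 1 fell (median 0.06). Glul, the glutamine synthetase of the hepatocytes next to the central vein, rose in both, by log2 fold changes of 0.49 ± 0.11 and 0.77 ± 0.11. Other pericentral genes went both ways in NASH vehicle against control livers. The 4 with the lowest p were Cyp2c29 (-5.09 ± 0.20), Rhbg (2.75 ± 0.16), Cyp27a1 (-1.64 ± 0.12) and Cyp1a2 (-1.15 ± 0.14).

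Cyp2d9 is a male-type gene under growth hormone, and lists of that axis were counted too, although the sex of the mice is not given. Of 15 tested male-type liver genes, 14 fell and 1 did not pass in NASH vehicle against control livers (median -3.15), and 3 rose, 5 fell and 7 did not pass in CDDO-Me against NASH vehicle livers (median -0.04). Of 15 tested female-type liver genes, 7 rose and 5 fell in the first comparison (median 1.00) and 5 rose and 1 fell in the second (median 0.22). Of 10 genes of growth hormone signalling, 6 fell and 1 rose in the first, and 3 fell and 7 did not pass in the second. Ghr, the growth hormone receptor, had log2 fold changes of -1.62 ± 0.16 and -0.06 ± 0.16 (edgeR adjusted p = 0.85), and Igf1, the growth factor it induces, of -1.36 ± 0.15 and -0.53 ± 0.15. Stat5b, which carries the signal to the nucleus, had -0.39 ± 0.11 and -0.19 ± 0.11 (edgeR adjusted p = 0.25), and the first of these turned to 0.23 with library totals alone and to 0.38 on log2(TPM + 1).

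Of 21 transcription factors and nuclear receptors of hepatocytes, 14 fell and 3 rose in NASH vehicle against control livers (median -0.57), with 4 fallen under library totals alone and 1 on log2(TPM + 1). Those scalings called 1326 and 873 of all 16456 tested genes lower. In CDDO-Me against NASH vehicle livers 4 of the 21 factors rose, 1 fell and 16 did not pass. The lowest p there was that of the nuclear receptor Nr1i3, which rose by a log2 fold change of 1.48 ± 0.17 (edgeR adjusted p = 9.2e-05). With library totals alone 1 factor rose, and 926 of all tested genes were called higher. Hnf4a, a master factor of hepatocytes, had log2 fold changes of -0.81 ± 0.15 and 0.22 ± 0.15 (edgeR adjusted p = 0.37), and the first turned to 0.01 on log2(TPM + 1). Nr0b2, a repressor of bile acid synthesis, passed in neither (-0.06 ± 0.21 and 0.18 ± 0.21, edgeR adjusted p = 0.83 and 0.60). Its first value turned to 0.56 with library totals alone (edgeR adjusted p = 0.026) and to 0.76 on log2(TPM + 1) (limma adjusted p = 0.011). The medians of all genes under those scalings were 0.62 and 0.51. Nfe2l2 had 0.69 ± 0.11 and -0.40 ± 0.11, and its target Nqo1, a quinone reductase, rose in both, by 1.27 ± 0.13 and 3.21 ± 0.13.

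Markers of the cells in these livers also differed between groups, not always in the direction of the members. The summed CPM of 7 hepatocyte markers was 45462 to 67453 in CDDO-Me libraries, 46823 to 71899 in NASH vehicle libraries and 97851 to 119837 in control libraries. Albumin (Alb), one of them, had a log2 fold change of -1.11 ± 0.22 in NASH vehicle against control livers and 0.12 ± 0.22 in CDDO-Me against NASH vehicle livers (edgeR adjusted p = 0.75). Of a wider list of 19 tested hepatocyte markers, 16 fell and 1 rose in the first comparison (median -1.11), and 4 rose and 3 fell in the second (median -0.05). The 9 macrophage markers summed to 825 to 1499 CPM in CDDO-Me libraries, 1540 to 2909 CPM in NASH vehicle libraries and 119.6 to 203.4 CPM in control libraries, and none was at 0 reads.

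Other cell types differed as well. The 7 stellate cell markers summed to 513 to 1011 CPM in CDDO-Me libraries, 1267 to 1941 CPM in NASH vehicle libraries and 114 to 284 CPM in control libraries. The 6 cholangiocyte markers summed to 383 to 862 CPM in CDDO-Me libraries, 452 to 1099 CPM in NASH vehicle libraries and 44.97 to 278 CPM in control libraries. The 5 endothelial markers summed to 135 to 195 CPM in CDDO-Me libraries, 64.7 to 121 CPM in NASH vehicle libraries and 147 to 157 CPM in control libraries. The 5 smooth muscle markers summed to 17.8 to 157 CPM in CDDO-Me libraries, 50.5 to 53.3 CPM in NASH vehicle libraries and 11.9 to 422 CPM in control libraries. The highest of their groups were CDDO-Me 4 and control 3. Control 3 also had the highest cholangiocyte sum of its group (278 CPM). Both libraries were kept in the main fit, and an alternative setting below leaves them out. The part of these cell types in the members' values was not tested. Of the 2 club cell markers, which would mark the lung cells that make Cyp2f2, Scgb3a2 was at 0 reads in every library and Scgb1a1 reached at most 0.11 CPM.

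The genes whose pattern was most like that of 3 members were found by the smallest root mean square difference of log2 CPM, centred per gene, over the 12 libraries and among 8909 genes. For Cyp2e1 these were Gk (difference 0.129), Agmo (0.129) and Lrrc58 (0.133), whose log2 fold changes in CDDO-Me against NASH vehicle livers were 0.74 ± 0.14, 0.61 ± 0.09 and 0.69 ± 0.14. For Cyp2f2 they were Keg1 (0.315), Hacl1 (0.341) and Arg1 (0.378), and for Cyp2d9 they were Mpv17l (0.226), Keg1 (0.272) and Cyp7b1 (0.327). Keg1 stood on both lists, with log2 fold changes of -3.32 ± 0.26 in NASH vehicle against control and 1.33 ± 0.25 in CDDO-Me against NASH vehicle livers. Some neighbours overlap the members. The reads of Gm15883, an antisense gene within Cyp2f2, were 4.51% unique, so its counts cannot be told apart from those of Cyp2f2.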

How the data were processed

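Poly(A) libraries were made with a NEBNext Ultra II kit and sequenced as 75 bp read pairs, per the labels' protocols, with genome build GRCm38 per the submitters' processing notes. The aligner, the counting tool and the strand setting are not given in the sources at hand. Each deposited table lists 41325 genes with counts of total, unique, exon and intron reads. The authors' deposited TPM sum to the same total in each library. Per the file headers the tables also hold RPKM and fractions of reads, which were not used. The authors' values were not corrected.

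Total gene reads, 28161057 to 33852338 per library, were filtered with filterByExpr (minimum count 10, minimum total 15), scaled by TMM and fitted in edgeR 4.0.16 (R 4.3.3), with 1 mean per group over all 12 libraries and robust shrinkage. Tests were two-sided with Benjamini-Hochberg adjustment over 16456 genes at 0.05. The SE of a log2 fold change is its size divided by the square root of the F statistic, and other errors are SD over 4 libraries. DESeq2 1.42.0 and limma 3.58.1 were alternatives. Sequences came from RefSeq and GENCODE, and the model was tested on simulated data. No 2 libraries of a group held identical values. The members and gene lists were chosen with earlier results of these data known. The rule for named genes takes all members, up to 4 genes per list by p, 9 key genes and the 3 genes most like Cyp2e1, Cyp2f2 and Cyp2d9, of which only those a result turns on are printed. One of the key genes is not reported here.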

Additional observations from a re-analysis of the deposited data

Results flagged for a closer look

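Of 30 sets of 4 libraries (the CPM of the 9 members and the ratio of Cyp2e1 to Cyp2f2, in 3 groups), 3 had a library far from the others by Dixon's test, and chance flags about 1 in 20. Each was in the NASH vehicle group. Cyp2f2 had 401.1 CPM in NASH vehicle 1, where the next highest library had 170.2 CPM. Cyp2d22 had 150.9 CPM in NASH vehicle 1, where the next highest had 117.2 CPM. Cyp2d12 had 1.29 CPM in NASH vehicle 2, where the next lowest had 1.88 CPM. NASH vehicle 1 also had the highest CPM of its group for Cyp2d9 (351.0), Cyp2d10 (484.2), Cyp2d26 (590.1) and Cyp2d40 (31.9). Without it, the log2 fold change of Cyp2f2 in CDDO-Me against NASH vehicle was 1.81 in place of 1.30. NASH vehicle 1 also stood apart from the other 3 libraries of its group in summed markers, with 71899 against 46823 to 54408 CPM for hepatocytes, 1540 against 2456 to 2909 CPM for macrophages and 121 against 64.7 to 83.6 CPM for endothelial cells. The part of these in the members' values was not tested.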

How the results depend on the processing

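Alternatives covered unique or exon reads, DESeq2 or its size factors, library totals without TMM, limma-trend on log2(TPM + 1) and log2(TPM + 0.1), no filter, a stricter one (50 reads in 4 libraries), 8 libraries per comparison, a replicate block, 10 libraries without control 3 and CDDO-Me 4, and each library left out. Of 645 results for a member, 617 kept their direction and their side of the threshold, 17 lost the call, 5 gained one and 6 turned in sign. The causes were not tested, other than that the scalings shift all genes. Listed as library totals, log2(TPM + 1) and log2(TPM + 0.1), genes higher in NASH vehicle than in control numbered 9908, 10905 and 11069 (4874 with TMM) and genes lower 1326, 873 and 872 (4945). For CDDO-Me against control, 8678, 8845 and 9243 were higher (4317) and 1125, 812 and 817 lower (3881), and 2, 3 and 3 members were higher (1). For CDDO-Me against NASH vehicle, 926, 779 and 719 were higher (1545). Lower in that comparison were 1191 genes with TMM, 2607 on log2(TPM + 1), 1968 on log2(TPM + 0.1), 1853 with DESeq2 and 2004 in 10 libraries. Leaving out 1 library gave 930 to 1972 higher and 617 to 1498 lower genes there. The highest counts were without CDDO-Me 4 (1972 higher) and without control 3 (1498 lower), and the lowest without NASH vehicle 4 (930 higher) and CDDO-Me 3 (617 lower). In 10 libraries 0 members were higher in CDDO-Me than in control, since Cyp2d12 lost its call (edgeR adjusted p = 0.095 at a log2 fold change of 0.69).

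In the same order of settings, log2 fold changes that turned in sign were, for NASH vehicle against control, Cyp2e1 (0.048, 0.25, 0.25), Por (0.087, 0.25, 0.25), Stat5b (0.23, 0.38, 0.39) and Nr0b2 (0.56, 0.76, 0.77), and on the TPM scales alone Hnf4a (0.0066, 0.0066) and Cyb5a (0.035, 0.035). For CDDO-Me against NASH vehicle they were Alb (-0.043, -0.096, -0.096), and on the TPM scales alone Hnf4a (-0.0097, -0.0097) and Nr0b2 (-0.098, -0.098). For CDDO-Me against control it was Cyp2d26 (0.22, 0.37, 0.37). Values near 0 also turned with fewer libraries. Nr0b2 in NASH vehicle against control gave 0.076 in 10 libraries and -0.25 to 0.075 with 1 library left out. For CDDO-Me against NASH vehicle, leaving out 1 library gave -0.010 to 0.31 for Alb (lowest without CDDO-Me 2) and -0.13 to 0.092 for Ghr (highest without NASH vehicle 1, and 0.050 without CDDO-Me 4). Ghr gave 0.050 in 10 libraries.

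The log2 ratio of Cyp2e1 to Cyp2f2 stayed higher, by 2.31 in 10 libraries and by 2.18 to 2.73 with 1 library left out for NASH vehicle against control, and by 1.53 and by 1.66 to 2.10 for CDDO-Me against control. With 3 libraries in a group, these exact permutation tests cannot reach 0.05 (smallest p 0.0571, or 0.10 for 3 against 3).

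Same-numbered libraries of different groups showed no clear common deviation (correlations of -0.22 to 0.19, with 2 of 12 over 0.1). No pairing by number was thus seen, though such correlations cannot exclude a weak one. Under the replicate block the log2 fold change of Cyp2f2 in CDDO-Me against NASH vehicle was 1.33 (edgeR adjusted p = 0.051), and no other member changed its call. With that block 1250 genes were higher and 927 lower in this comparison. At 28161057 reads or more per library depth limited Cyp2d11 and Cyp2d12, which had 81 reads or fewer in every NASH vehicle and control library.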
